A study of Mus musculus with 18 samples.

Results

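The genes described here serve the presentation of peptides on major histocompatibility complex (MHC) class I molecules. Of 10 genes taken by name, namely Tap1, Tap2, Tapbp, Psmb8, Psmb9, Psmb10, B2m, H2-K1, H2-D1 and Nlrc5, 9 had a level among the 15544 genes of the deposited tables, and Psmb9 was not analysed here. All 9 passed the filter on low levels (a mean of at least 6 on the log2 scale over the 18 libraries), as did 15249 genes in all. The study sequenced total RNA of mouse cells captured by magnetic beads through EpCAM, an epithelial surface protein, in work on the lung. Its libraries come from double heterozygotes carrying Falcor+/- and Foxa2+/- together (n = 4, replicates 15 to 18), from Falcor-/- (n = 5, replicates 6 to 10), from Foxa2+/- (n = 4, replicates 11 to 14) and from wild type (n = 5, replicates 1 to 5). The study design gives an age of 10 to 12 weeks. Foxa2 is a forkhead transcription factor of endoderm-derived epithelia, and Falcor is a long non-coding RNA made next to it. The sources used here do not say how the alleles were made, in which cells they act or whether each library came from its own animal, so p-values measure the spread between these libraries.

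Class I molecules display fragments of the cell's own proteins to CD8+ T cells and to natural killer cells. The proteasome cuts the proteins, and in cells exposed to interferon gamma its catalytic subunits Psmb6, Psmb7 and Psmb5 are replaced by Psmb9, Psmb10 and Psmb8 to form the immunoproteasome. The transporter made of Tap1 and Tap2 carries the peptides into the endoplasmic reticulum, where tapasin, the product of Tapbp, holds the transporter beside an empty class I molecule. That molecule is a heavy chain, here H2-K1 or H2-D1, paired with the light chain B2m. Nlrc5 is a transcriptional activator of class I genes. Nearly all nucleated cells make class I molecules, and leukocytes make much of them.

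In GRCm38, 7 of the 10 genes lie on chromosome 17 in the order Tapbp, H2-K1, Psmb9, Tap1, Psmb8, Tap2 and H2-D1, B2m lies on chromosome 2, and Nlrc5 and Psmb10 lie on chromosome 8. Tap1 and Psmb9 are transcribed away from each other and overlap by 212 bases at their starts. B2m lies within Patl2 on the other strand, and the sources used here do not give the strand setting of the authors' counting, so reads of such pairs cannot be told apart. Promoter windows of 8 genes, the 250 bases before the start given by RefSeq, were found in its table on GRCm38.p6. By GENCODE vM21 those of Tapbp, Psmb8, Psmb9 and H2-D1 lie inside the gene's own span, since its start lies further upstream, and that of Tap1 lies over the first exon of Psmb9. The sequences of B2m and H2-K1, which were higher in Falcor-/- than in Foxa2+/-, are shown, as their windows lie before the start in both annotations, but for 1 base of B2m. They are chr2:122147437-122147686 (plus strand) for B2m and chr17:34000348-34000597 (minus strand) for H2-K1. Each is written 5′ to 3′ along the gene, with capitals marking a match to a motif searched on both strands.

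B2m promoter: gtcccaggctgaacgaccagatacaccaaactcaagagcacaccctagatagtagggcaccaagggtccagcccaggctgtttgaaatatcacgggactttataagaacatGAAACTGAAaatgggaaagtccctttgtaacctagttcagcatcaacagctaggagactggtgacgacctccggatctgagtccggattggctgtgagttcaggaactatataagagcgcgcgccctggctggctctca
H2-K1 promoter: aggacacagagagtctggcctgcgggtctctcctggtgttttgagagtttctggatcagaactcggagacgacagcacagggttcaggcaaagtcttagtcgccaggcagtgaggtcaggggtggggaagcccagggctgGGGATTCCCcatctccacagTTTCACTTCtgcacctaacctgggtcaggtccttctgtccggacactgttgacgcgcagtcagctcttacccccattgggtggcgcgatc

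The letters searched were GAANNGAAA and GAAANNGAA, forms of the element bound by interferon regulatory factors, and GGGATTCCC, a form of the element bound by NF-kB. They were chosen with the genes known, and GAAANNGAA and GGGATTCCC were shortened by 1 letter after a first search, in which the longer forms matched the same genes. H2-K1 and H2-D1 each held GAANNGAAA, on the other strand and so written in the H2-K1 sequence as its reverse complement, and GGGATTCCC. The first stands in 6.31% and the second in 0.302% of the 32817 promoters of the table read over the same 250 bases. B2m held GAAANNGAA, found in 7.12% of all promoters. No match was found in the windows of Tap1, Psmb8, Psmb9, Tapbp and Psmb10. The H2-K1 and H2-D1 windows carry the same letter at 166 of 190 positions (87.4%) when aligned with a shift of 60 bases. Reads of closely alike heavy chains may be shared between genes.

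The libraries were compared first for what they contain. The Falcor transcript, annotated as 9030622O22Rik, fell by 3.98 in Falcor-/- against wild type and Foxa2 fell by 0.57 in Foxa2+/- and by 0.60 in the double heterozygotes, while the Falcor transcript was 1.48 higher than wild type in the double heterozygotes despite their label, and 1.52 higher in Foxa2+/-. The mean of the 14 epithelial markers, among them Epcam and Cdh1, ran from 13.85 to 14.10 in the double heterozygotes, from 13.78 to 14.06 in Falcor-/- and from 13.76 to 13.90 in Foxa2+/-, all above the wild-type range of 13.62 to 13.74. Leukocyte markers were also present: 17 of the 20 listed had a level, and Ptprc, the pan-leukocyte surface phosphatase CD45, averaged 14.20 in the double heterozygotes, 14.21 in Falcor-/-, 14.28 in Foxa2+/- and 14.25 in wild type. Cd3e, which marks T cells, averaged 6.31, 6.58 and 5.72 in these mutants in the same order, and 6.14 in wild type. For the 20 endothelial markers the mean ran from 10.16 to 10.84 in the double heterozygotes, from 11.39 to 13.25 in Falcor-/-, from 10.81 to 11.28 in Foxa2+/- and from 11.93 to 13.42 in wild type. No marker stood at the lowest level of the tables in any library. Some lay near the filter level of 6, Cd3e among them, and 1 of the 17 leukocyte markers averaged below it. In such bulk RNA, fewer cells of a type and less RNA per cell cannot be told apart.

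Across the 4 genotypes, the peptide transporter, the immunoproteasome subunit Psmb8 and the heavy chain H2-K1 varied beyond the spread between libraries. In the moderated F-test of limma, 4 of 9 genes passed an adjusted p of 0.05, as did 23.2% of all genes tested: Tap1 (adjusted p = 0.00094), Tap2 (adjusted p = 0.0075), Psmb8 (adjusted p = 0.0218) and H2-K1 (adjusted p = 0.0237). Psmb10 (adjusted p = 0.0705), B2m (adjusted p = 0.106), Tapbp (adjusted p = 0.144), Nlrc5 (adjusted p = 0.715) and H2-D1 (adjusted p = 0.845) did not pass. The 3 comparisons with wild type share the same 5 wild-type libraries, so their values are given side by side and are not independent of each other.

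**Figure D1:**
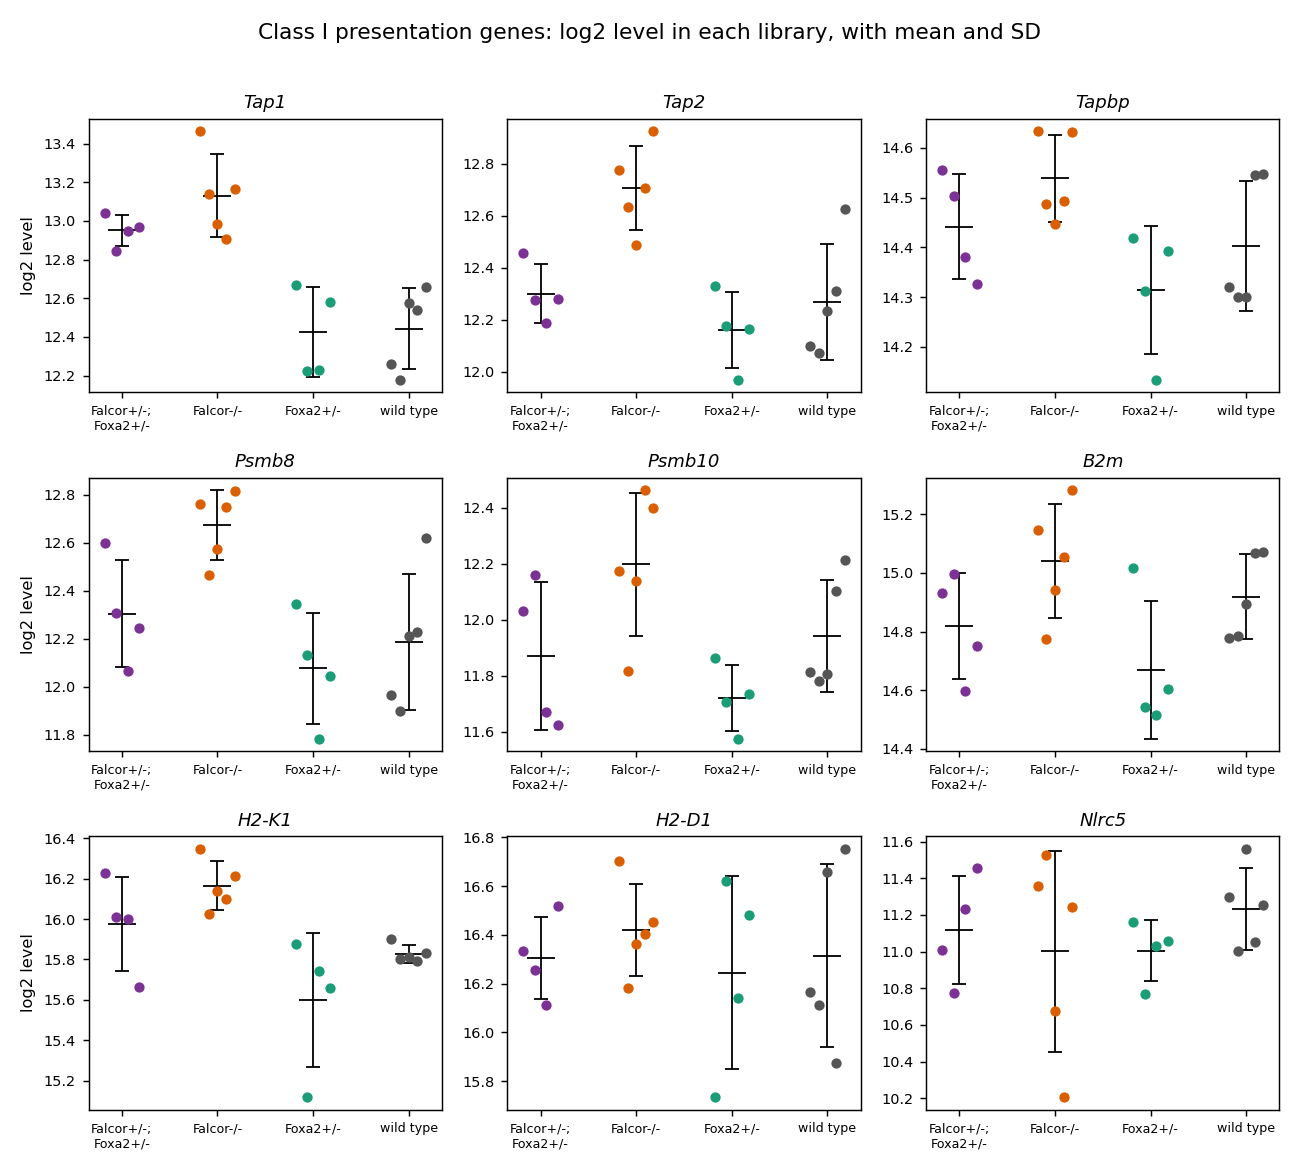
Deposited log2 level (vertical axis, its own range in each panel) of 9 class I presentation genes in each library of the double heterozygotes, Falcor-/-, Foxa2+/- and wild type; points are libraries, long bars the mean and short bars 1 SD. The 5 Falcor-/- libraries of Tap1 lie between 12.91 and 13.46 and the 4 double heterozygous ones between 12.85 and 13.04, all above the highest wild-type library at 12.66.

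The first comparison asked what loss of Falcor changes. Both subunits of the peptide transporter and Psmb8 were higher in Falcor-/- than in wild type, Tap1 to 1.61 times, Tap2 to 1.36 times and Psmb8 to 1.40 times the wild-type level. The differences of mean log2 levels were above 0 for 8 of 9 genes, and 3 of 9 passed as higher, against 5.23% of all genes tested. Their median was 0.26, against 0.03 over all genes tested. H2-K1, the light chain B2m, tapasin and Nlrc5 did not pass. Of the 14 epithelial markers, 10 lay above 0 in the same comparison and 4 passed as higher, with a median of 0.27.

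Tap1, a transporter subunit, was at 13.46, 13.14, 12.98, 12.91 and 13.17 in Falcor-/- replicates 6 to 10, against 12.26, 12.18, 12.58, 12.54 and 12.66 in wild-type replicates 1 to 5. All 5 Falcor-/- libraries lay above all 5 wild-type libraries. The difference was 0.69 with an SE of 0.12 (adjusted p = 0.0052; 95% confidence interval 0.44 to 0.94), and the 2-sided exact permutation p was 0.00794, the smallest that 5 against 5 libraries can give. Tap2, the partner subunit, was at 12.78, 12.63, 12.49, 12.70 and 12.92 in Falcor-/-, against 12.10, 12.07, 12.23, 12.31 and 12.63 in wild type. Wild-type replicate 5 reached into the Falcor-/- range, and 4 of 5 Falcor-/- libraries lay above it. The difference was 0.44 (SE 0.10, adjusted p = 0.0228, exact permutation p = 0.0159). Tapbp averaged 14.54 ± 0.09 in Falcor-/- and 14.40 ± 0.13 in wild type (SD, n = 5 each), a difference of 0.14 that did not pass (95% confidence interval -0.02 to 0.29, adjusted p = 0.203).

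Psmb8, the immunoproteasome subunit that takes the place of Psmb5, was at 12.76, 12.47, 12.57, 12.75 and 12.82 in Falcor-/-, against 11.96, 11.90, 12.21, 12.23 and 12.62 in wild type. Wild-type replicate 5 was again the high one, and 3 of 5 Falcor-/- libraries lay above it. The difference was 0.49 (SE 0.13, adjusted p = 0.0358, exact permutation p = 0.0238). Psmb10, which takes the place of Psmb7, was at 12.18, 11.82, 12.14, 12.46 and 12.40 in Falcor-/-, against 11.82, 11.78, 11.81, 12.10 and 12.21 in wild type. The groups overlapped through Falcor-/- replicate 7 and wild-type replicates 4 and 5, and the difference of 0.26 did not pass (SE 0.13, adjusted p = 0.178).

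H2-K1, a classical heavy chain, was at 16.35, 16.03, 16.14, 16.10 and 16.21 in Falcor-/-, against 15.90, 15.80, 15.81, 15.79 and 15.83 in wild type. The wild-type libraries were within a narrow band and every Falcor-/- library lay above them, one of 2 genes of the 9, with Tap1, whose groups did not overlap, against 4.22% of all genes tested that lay apart and higher. The difference of 0.34 (SE 0.12) had an exact permutation p of 0.00794 and did not pass after adjustment over all genes (adjusted p = 0.0759). H2-D1, the other classical heavy chain, averaged 16.42 ± 0.19 in Falcor-/- and 16.31 ± 0.38 in wild type (SD, n = 5 each; difference 0.11, 95% confidence interval -0.27 to 0.48, adjusted p = 0.69). B2m averaged 15.04 ± 0.19 in Falcor-/- and 14.92 ± 0.14 in wild type (SD, n = 5 each; difference 0.12, adjusted p = 0.46). Nlrc5 was at 11.36, 11.53, 10.68, 10.21 and 11.24 in Falcor-/-, against 11.29, 11.00, 11.56, 11.05 and 11.25 in wild type. Its Falcor-/- libraries fell into a lower pair, replicates 8 and 9, and 3 others within or near the wild-type range, and the difference of -0.23 did not pass (SE 0.21, adjusted p = 0.438).

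The call of Tap1 held in each of the 10 runs that left out a library, whereas that of Tap2 was lost without wild-type replicate 1 or 2 (adjusted p = 0.0634 and 0.0621) and that of Psmb8 was lost in 7 of the 10 runs. Of all genes tested, 2.32% and 2.77% passed without wild-type replicate 1 or 2, against 9.47% with all libraries. Values set relative to the mean of the standard 20S proteasome genes, which itself averaged 12.84 in Falcor-/- and 12.55 in wild type, gave a Tap1 difference of 0.40 (adjusted p = 0.0864) and no call among the 9 genes. Set relative to the epithelial markers, Tap1 kept its call at 0.45 (adjusted p = 0.0174), whereas Tap2 at 0.20 (adjusted p = 0.191) and Psmb8 at 0.25 (adjusted p = 0.135) lost theirs. The calls of Tap2 and Psmb8 were also lost when the libraries of these genotypes were fitted alone (adjusted p = 0.0594 and 0.0607), and that of Psmb8 with the macrophage and dendritic cell markers or the endothelial markers as a covariate (adjusted p = 0.0824 and 0.1001). In either direction 3.17% of all genes tested passed in the fit alone, and 1.80% and 0.846% under these covariates. Set relative to the 20S proteasome genes and to the epithelial markers, 5.71% and 33.0% of all genes tested passed.

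**Figure D2:**
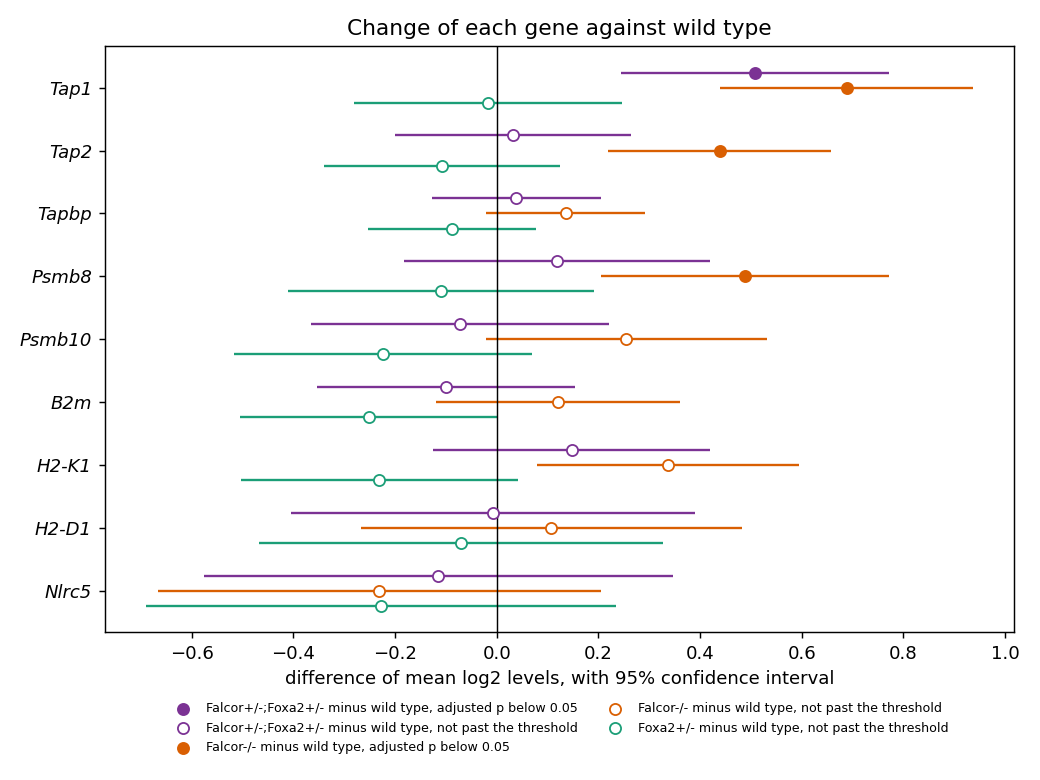
Difference of mean log2 levels from wild type (horizontal axis) for the double heterozygotes, Falcor-/- and Foxa2+/-, with 95% confidence intervals from limma; filled points passed an adjusted p of 0.05. Filled points are Tap1 in the double heterozygotes (0.51) and Tap1, Tap2 and Psmb8 in Falcor-/- (0.69, 0.44 and 0.49), and every Foxa2+/- point lies below 0.

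In the double heterozygotes Tap1 alone of the 9 genes passed against wild type, a count near the share of all genes tested. It reached 1.42 times the wild-type level, with Tap2 and Psmb8 close to wild type, and 1 of 9 genes passed as higher against 7.21% of all genes tested. The median difference of the 9 genes was 0.03, against 0.07 over all genes.

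Tap1 was at 13.04, 12.85, 12.95 and 12.97 in double heterozygous replicates 15 to 18, against 12.26, 12.18, 12.58, 12.54 and 12.66 in wild type. The 4 libraries lay close together and above every wild-type library, the one gene of the 9 whose groups did not overlap, against 8.61% of all genes that lay apart and higher. The difference was 0.51 with an SE of 0.13 (exact permutation p = 0.00794, adjusted p = 0.0118; 95% confidence interval 0.24 to 0.77). Tap2 was at 12.46, 12.28, 12.19 and 12.28 in the double heterozygotes, inside the wild-type range, with a difference of 0.03 (95% confidence interval -0.20 to 0.26, adjusted p = 0.867). Psmb8 was at 12.60, 12.30, 12.06 and 12.24, also inside the wild-type range (difference 0.12, adjusted p = 0.603). H2-K1 was at 16.23, 16.01, 15.998 and 15.66, with 3 of 4 libraries above the highest wild-type library and replicate 18 below the lowest, and its difference of 0.15 did not pass (adjusted p = 0.465). The other 5 genes differed from wild type by -0.11 to 0.04, and none passed.

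The Tap1 call was kept in each of the 9 runs that left out a library. It was lost when levels were set relative to the epithelial markers (difference 0.21, adjusted p = 0.24) or to the standard 20S proteasome genes (0.35, adjusted p = 0.292), and with the macrophage and dendritic cell markers (0.56, adjusted p = 0.086) or the endothelial markers (0.50, adjusted p = 0.996) as a covariate. Relative to the epithelial markers and to the 20S genes 33.3% and 7.33% of all genes tested passed. Under the macrophage and dendritic cell covariate 4.31% of all genes tested passed. Under the endothelial covariate 1 of the 15249 genes did, and the endothelial means of these genotypes did not overlap (10.16 to 10.84 against 11.93 to 13.42 in wild type).

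In Foxa2+/- no gene of the 9 differed from wild type after adjustment, nor did any reach an unadjusted limma p of 0.05, whereas 6.11% of all genes tested passed in either direction. All 9 differences lay below 0, between -0.25 for B2m and -0.02 for Tap1, with a median of -0.11, against 0.04 over all genes. B2m was at 15.02, 14.54, 14.51 and 14.60 in Foxa2+/- replicates 11 to 14, against 14.78, 14.79, 14.89, 15.07 and 15.07 in wild type. Replicate 11 lay among the wild-type libraries and the other 3 below all of them (difference -0.25, SE 0.12, adjusted p = 0.268, exact permutation p = 0.0794). H2-K1 was at 15.88, 15.12, 15.74 and 15.66 in Foxa2+/-, with replicate 12 as the lowest of the 18 libraries (difference -0.23, adjusted p = 0.359). Tap1 was at 12.67, 12.23, 12.23 and 12.58, spread over the wild-type range (difference -0.02, 95% confidence interval -0.28 to 0.25, adjusted p = 0.969). Leukocyte markers averaged 10.59 (lowest 10.47, highest 10.74) in Foxa2+/- and 10.98 (lowest 10.85, highest 11.27) in wild type, with no overlap. Of the 16 tested none passed, and 13 lay below 0 and 3 above it. That mean includes genes near the filter level of 6, such as Cd3g (5.22 and 6.35) and Gzma (4.84 and 6.30), while Ptprc was at 14.28 and 14.25. With the mean of the leukocyte markers as a covariate, 7 of the 9 class I differences turned above 0 and none passed, and under that covariate 1 of the 15249 genes did.

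Between the mutants, the class I genes differed most often between Falcor-/- and Foxa2+/-. There 6 of 9 genes passed as higher in Falcor-/-, against 8.56% of all genes tested, and their median difference was 0.48, against 0.00 over all genes. The genes were Tap1 (0.71, adjusted p = 0.0039), Tap2 (0.55, adjusted p = 0.0069), H2-K1 (0.57, adjusted p = 0.0119), Psmb8 (0.60, adjusted p = 0.0142), Psmb10 (0.48, adjusted p = 0.0299) and B2m (0.37, adjusted p = 0.0442). Tapbp missed the threshold at 0.22 (adjusted p = 0.0568), and H2-D1 and Nlrc5 differed by 0.18 and -0.00. For 5 of 9 genes the libraries of the genotypes did not overlap, against 6.86% of all genes that lay apart and higher in Falcor-/-: Tap1, Tap2, Tapbp, Psmb8 and H2-K1. Psmb10 averaged 12.20 ± 0.26 in Falcor-/- (SD, n = 5) and 11.72 ± 0.12 in Foxa2+/- (SD, n = 4). In the 9 runs that left out a library, Tap1, Tap2 and H2-K1 kept their calls, while the call of Psmb8 was lost in 1, that of Psmb10 in 6 (adjusted p up to 0.0998) and that of B2m in 7 (adjusted p up to 0.14). In those 9 runs 5.01% to 31.1% of all genes tested passed in either direction. Relative to the standard 20S proteasome genes none of the 6 passed, where 15.1% of all genes tested did in either direction.

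Leukocyte markers averaged 11.07 (lowest 10.75, highest 11.31) in Falcor-/- and 10.59 (lowest 10.47, highest 10.74) in Foxa2+/-, again with no overlap, and 3 of the 16 tested passed as higher in Falcor-/-. Endothelial markers (11.39 to 13.25 in Falcor-/-, 10.81 to 11.28 in Foxa2+/-) did not overlap either, and 14 of 20 passed as higher in Falcor-/-, as did 6 of 14 mesenchymal markers. Of all genes tested, 8.56% passed as higher and 16.7% in either direction. The macrophage and dendritic cell markers averaged 11.94 (10.92 to 12.66) in Falcor-/- and 12.49 (12.38 to 12.59) in Foxa2+/-. Of these 18 markers 6 passed as lower in Falcor-/- and none as higher, while 10 lay above 0 and 8 below it. With the mean of the endothelial markers as a covariate none of the 9 class I genes passed, against 0.872% of all genes tested. Tap1 was then at 0.71 (adjusted p = 0.0599). With the mean of the leukocyte markers none passed either, and 3 of the 15249 genes did: Tap1 was then at 0.55 (adjusted p = 0.448), H2-K1 at 0.40 (adjusted p = 0.673), Tap2 at 0.23 (adjusted p = 0.77) and Psmb8 at 0.15 (adjusted p = 0.945). In the comparison of Falcor-/- with wild type, whose leukocyte means overlapped (10.75 to 11.31 in Falcor-/- and 10.85 to 11.27 in wild type), the same covariate left Tap1, Tap2 and Psmb8 at 0.66, 0.38 and 0.40, and all 3 passed (adjusted p = 0.0093, 0.0223 and 0.0355), as did 7.04% of all genes tested. Other markers differed there. Of the 18 macrophage and dendritic cell markers 6 passed as lower in Falcor-/- and 1 as higher, with 8 below 0 and 10 above it. All 20 endothelial and all 14 mesenchymal markers lay below 0, and 2 of each passed. Of all genes tested, 4.24% passed as lower and 5.23% as higher.

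The double heterozygotes differed from Foxa2+/- in Tap1 alone of the 9 genes (1 of 9 higher, against 1.06% of all genes tested), by 0.53 (adjusted p = 0.0452, exact permutation p = 0.0286, the smallest that 4 against 4 can give). They differed from Falcor-/- in Tap2 alone, which was at 12.46, 12.28, 12.19 and 12.28 in the double heterozygotes, against 12.78, 12.63, 12.49, 12.70 and 12.92 in Falcor-/-, every double heterozygous library lying below every Falcor-/- library, as in 4.05% of all genes tested. That difference was -0.41 (SE 0.11, adjusted p = 0.0414, exact permutation p = 0.0159), and 1 of 9 genes passed, against 5.15% of all genes tested that passed in either direction. Tap1 itself differed between the double heterozygotes and Falcor-/- by -0.18 (95% confidence interval -0.44 to 0.08, adjusted p = 0.429). The mean level of Tap1 was thus highest in Falcor-/- (13.13 ± 0.22, n = 5), then in the double heterozygotes (12.95 ± 0.08, n = 4), wild type (12.44 ± 0.21, n = 5) and Foxa2+/- (12.43 ± 0.23, n = 4; all SD), and in that order the first pair of neighbours and the last did not differ beyond their spread. For Tap2 the order was Falcor-/- (12.71 ± 0.16), the double heterozygotes (12.30 ± 0.11), wild type (12.27 ± 0.22) and Foxa2+/- (12.16 ± 0.15), and only the step between Falcor-/- and the double heterozygotes passed. The call of Tap1 against Foxa2+/- was lost in 7 of 8 runs that left out a library, and that of Tap2 against Falcor-/- in 6 of 9. Over all these runs the Tap1 difference stayed between 0.46 and 0.61 and the Tap2 difference between -0.46 and -0.35. Of the 15249 genes, 90 to 381 passed in either direction in the 8 runs, against 370 with all libraries. In the 9 runs 412 to 1233 passed, against 785 with all libraries.

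Most other genes of the pathway did not pass. Of 8 genes for peptide loading and trimming, which include the chaperones Calr and Canx and the trimming peptidase Erap1, none passed against wild type in any mutant. In each mutant 7 of the 8 lay below wild type. In Falcor-/- the 8 differences ran from -0.92 to 0.03, and 3 had an unadjusted limma p under 0.05. Against Foxa2+/-, 1 of the 8 passed as lower in Falcor-/-, where 16.7% of all genes tested passed in either direction. The standard catalytic subunits Psmb5, Psmb6 and Psmb7 differed by 0.11, 0.35 and 0.34 between Falcor-/- and wild type, and none of the 3 passed (adjusted p = 0.553, 0.0941 and 0.0586). All 14 genes of the standard 20S proteasome were above wild type in Falcor-/-, with differences between 0.11 and 0.35 and a median of 0.31, and none of them passed adjustment, although 13 had an unadjusted limma p under 0.05. Psmb8 at 0.49 lay above this range and Psmb10 at 0.26 lay inside it.

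Psme1, which encodes a subunit of the interferon-inducible proteasome activator PA28, was at 13.96, 13.76, 14.12, 14.15 and 14.08 in Falcor-/-, against 13.47, 13.56, 13.56, 13.66 and 13.82 in wild type. It was the 1 gene of 8 proteasome activators and assembly factors that passed (difference 0.40, SE 0.10, adjusted p = 0.0255), against 5.23% of all genes tested that passed as higher. One Falcor-/- library, replicate 7, lay below the highest wild-type library. Its partner Psme2 differed by 0.30 (adjusted p = 0.118).

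Other class I and class I-like heavy chains followed their own patterns. Of 15 tested, H2-Q1 was lower in Falcor-/- and in the double heterozygotes, H2-T24 was lower in the double heterozygotes, and none was higher than wild type in any mutant. Of all genes tested, 4.24% passed as lower in Falcor-/-, 7.57% in the double heterozygotes and 4.15% in Foxa2+/-. Against Foxa2+/-, 4 of the 15 passed as higher and 1 as lower in Falcor-/-, where 16.7% of all genes tested passed in either direction. In the double heterozygotes against Foxa2+/-, 1 passed as higher and 1 as lower, where 2.43% of all genes did in either direction. H2-Q1 was at 4.83, 4.99, 3.76 and 8.52 in the double heterozygotes and at 4.33, 7.86, 5.09, 4.73 and 7.96 in Falcor-/-, against 9.80, 9.54, 10.06 and 9.32 in Foxa2+/- and 10.21, 10.15, 9.28, 9.55 and 11.02 in wild type. Every library of the first 2 genotypes lay below every library of the last 2, and within the first 2 genotypes the values fell into a pair of bands, near 4 to 5 and near 8. The differences from wild type were -4.52 (SE 0.86, adjusted p = 0.00197) in the double heterozygotes, -4.05 (SE 0.81, adjusted p = 0.0119) in Falcor-/- and -0.36 (adjusted p = 0.888) in Foxa2+/-. The lower band lay below the filter level of 6, which H2-Q1 passed on its mean over all libraries. At such low levels the sizes of the H2-Q1 differences and the gap between the bands are uncertain. H2-T24 averaged 8.36 ± 0.46 in the double heterozygotes (SD, n = 4) and 9.63 ± 0.56 in wild type (SD, n = 5), a difference of -1.27 (adjusted p = 0.0274).

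Foxa2+/- replicate 12, the library with the lowest H2-K1, stood out in further heavy chains that were picked after their values were seen. It had H2-T22 at 8.65, against 10.94 to 12.34 in the other 17 libraries, and H2-T23 at 11.20, against 12.49 to 13.88. Its H2-D1 level of 16.62 was the highest of the 4 Foxa2+/- libraries. The reads of these closely alike genes can be shared among them, and the part of this in the values was not tested.

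**Figure D3:**
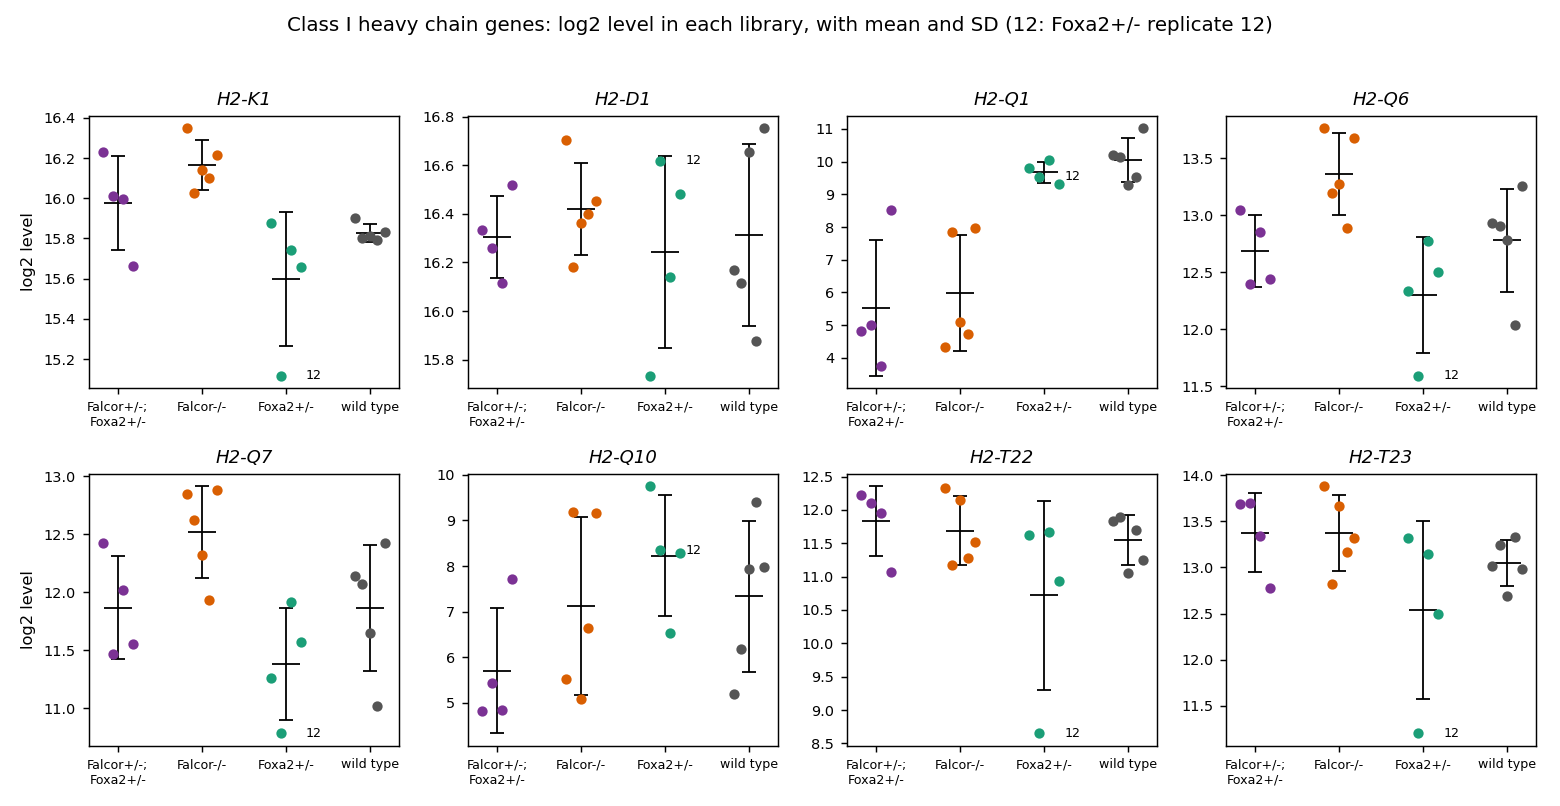
Deposited log2 level (vertical axis, its own range in each panel) of 8 class I heavy chain genes in each library of the double heterozygotes, Falcor-/-, Foxa2+/- and wild type; points are libraries, long bars the mean, short bars 1 SD, and 12 marks Foxa2+/- replicate 12. H2-Q1 lies at 8.52 or less in both genotypes labelled as lacking a Falcor allele and at 9.28 or more in the others, and replicate 12 is the lowest library in H2-K1, H2-T22 and H2-T23.

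Among 21 genes that regulate class I, the interferon receptor subunit Ifnar1 (-0.24, adjusted p = 0.0384) and the kinase Jak1 (-0.28, adjusted p = 0.0247) were lower in Falcor-/-, and Ifnar2 (-0.22, adjusted p = 0.0376) and Jak1 (-0.25, adjusted p = 0.0292) were lower in the double heterozygotes, and none was higher than wild type in any mutant. In each of these genotypes 2 of the 21 passed as lower, against 4.24% and 7.57% of all genes tested. In the double heterozygotes the count is near that share. Jak1 was at 13.53, 13.61, 13.35, 13.29 and 13.49 in Falcor-/-, against 13.71, 13.79, 13.71, 13.74 and 13.74 in wild type. The transcription factor Irf1, which acts between interferon gamma and the class I genes, differed by 0.12 in Falcor-/- (adjusted p = 0.388) and by -0.28 in the double heterozygotes (adjusted p = 0.0677). Of 30 other interferon-stimulated genes none was higher than wild type in any mutant, and 6 were lower in Falcor-/- (against 4.24% of all genes tested), 6 in the double heterozygotes (against 7.57%) and 1 in Foxa2+/- (against 4.15%). They include Oas2, an antiviral synthetase (-1.79 in Falcor-/-, adjusted p = 0.0057), Parp14 (-0.57 in Falcor-/-, adjusted p = 0.0101), the RNA sensor Ddx58 (-0.36 in Falcor-/-, adjusted p = 0.0169) and Xaf1 (-0.69 in Foxa2+/-, adjusted p = 0.0051). In Falcor-/-, 22 of the 30 lay below wild type and 8 above it. Of 9 genes for MHC class II presentation, 3 were higher in Falcor-/- (against 5.23% of all genes tested) and 2 in the double heterozygotes (against 7.21%), among them H2-Oa (0.98 in Falcor-/-, adjusted p = 0.0182, and 1.08 in the double heterozygotes, adjusted p = 0.0051). Between Falcor-/- and Foxa2+/-, 5 of these 9 passed as higher in Falcor-/-, against 8.56% of all genes tested. All 9 lay above 0, with a median of 0.51, beside 0.48 for the class I genes.

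Within genotypes, most of the class I genes went up and down together from library to library. After each gene's genotype mean was subtracted, the likeness of a pair was taken as Pearson's r over the 18 libraries, which share the authors' normalization, and it is given as a description without a test. Tap2 and Psmb8, neighbours on chromosome 17, had the highest r at 0.93, and Psmb10 and B2m, on different chromosomes, had 0.81. The median r of a gene with the other 8 was 0.56 to 0.69 for Tap1, Tap2, Tapbp, Psmb8 and B2m, and 0.48 for Psmb10. For H2-K1, H2-D1 and Nlrc5 it was 0.26, 0.09 and 0.04, and H2-K1 and H2-D1 had an r of -0.35 with each other. Of 13720 other genes with a symbol, those most like the mean of the 9 were Ube2l6 (0.90), Rtn4 (0.89), Tubb5 (0.88), Arpc1b (0.86), Lgals3bp (0.86) and Gltp (0.85), against a median of -0.01 over all of them. None of these 6 passed against wild type in any mutant. Rtn4, Tubb5 and Gltp passed as higher in Falcor-/- than in Foxa2+/-, against 8.56% of all genes tested. Rtn4 also passed as lower in the double heterozygotes than in Falcor-/- (-0.25, adjusted p = 0.0492), where 5.15% of all genes tested passed in either direction.

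**Figure D4:**
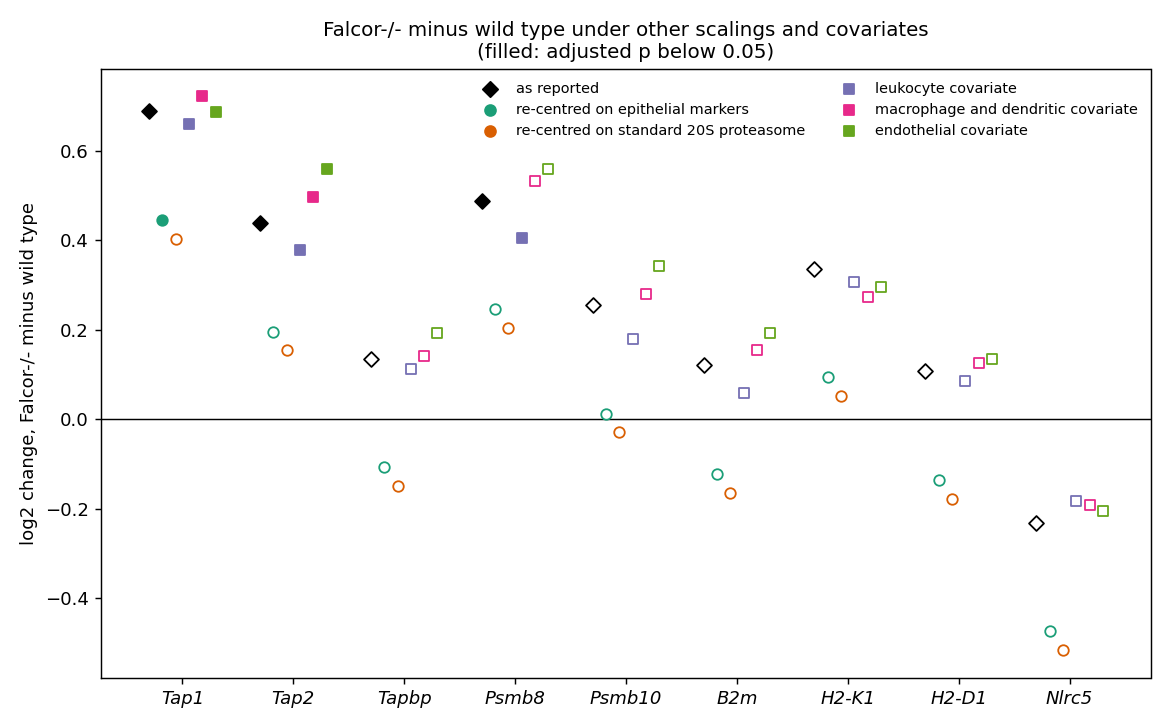
Difference of mean log2 levels between Falcor-/- and wild type (vertical axis) for 9 class I presentation genes, as reported and under other scalings and covariates; filled symbols passed an adjusted p of 0.05. Tap1 stays between 0.40 and 0.72 and is open for the 20S proteasome scaling alone, and both scalings lower every gene, taking Tapbp, B2m and H2-D1 below 0, while Psmb10 lies at -0.03 under the 20S proteasome scaling.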

How the data were processed

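RNA of 18 libraries was deposited as 1 set of log2 levels per library for 15544 Ensembl genes. Per the submitters' processing notes, the authors used STAR, limma and the mm9 build; the sources used here name no versions, read counter, strand setting or annotation. The deposited log2 values run from 1.0 to 18.73 and libraries hardly differ in distribution (largest gap at the same rank 0.0512 within the top 90% of ranks), as after quantile normalization, which would hide a shift common to most genes. The log base, not named in the headers, was taken as 2. Depth is unknown, so no interval for counting error is given, and levels are not per length, so they are not compared between genes. Across genes, libraries of 1 genotype had a Pearson's r of 0.964 to 0.984.

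Symbols came from GENCODE vM21 (14994 identifiers matched, 550 did not). Genes with a mean below 6 were left out (295). The model, fitted in limma 3.58.1 (R 4.3.3) on the 18 libraries together, had a mean for each genotype and a moderated variance with intensity trend; its degrees of freedom were 14 residual and 17.05 in total. Its 2-sided p-values were adjusted over the 15249 genes tested by the Benjamini-Hochberg method. SE and 95% confidence intervals come from this fit. Exact permutation tests of single genes used 252 (5 against 5), 126 (4 against 5) or 70 (4 against 4) regroupings, with smallest p-values of 0.00794, 0.00794 and 0.0286. The code was tested on simulated data. Alternatives were other filters, pairwise fits, no trend, library weights, re-centring on epithelial or standard 20S proteasome genes, marker means as covariates, and leaving out each library. The genes, the pathway lists and the tests were chosen with earlier results of these data known. Beyond the 9 genes, the text names pathway genes called against wild type, a fixed set of subunits and factors (1 factor of it is not reported here), at most 4 interferon-stimulated and 4 class II genes by smallest p, and the 6 most alike genes; H2-T22 and H2-T23 were added after their values were seen.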

Additional observations from a re-analysis of the deposited data

How the results depend on the processing

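No count of called class I genes changed without the filter or with a mean of at least 9. Set relative to the epithelial markers, which moved the median difference of all genes from wild type to -0.21 for Falcor-/-, -0.10 for Foxa2+/- and -0.23 for the double heterozygotes, the counts against wild type were 1 (Tap1, higher), 1 (B2m, lower, -0.394, adjusted p = 0.0452) and 3 in that order, and 0 for the double heterozygotes against Foxa2+/-. The 3 were Tapbp, Psmb10 (-0.372, adjusted p = 0.0253) and B2m (-0.399, adjusted p = 0.0153), all lower, and the rise of Tap1 was not among them. Of all genes tested, 33.0%, 8.12% and 33.3% passed against wild type in either direction under this scaling, in the same order. The count of 3 for the double heterozygotes was thus near the share of all genes. Set relative to the standard 20S proteasome genes (medians -0.26, 0.03 and -0.09), every count was 0, the F-test included, in which 11.5% of all genes tested passed. The leukocyte covariate gave 0 in the comparisons between mutants and 2 in the F-test, where 11.7% of all genes tested passed. The macrophage and dendritic cell covariate gave 0 in the comparisons of the double heterozygotes. The endothelial covariate gave 0 in those and in Falcor-/- against Foxa2+/-, and 2 in the F-test, where 5.28% of all genes tested passed. Under the endothelial covariate, 1 of the 15249 genes passed for the double heterozygotes against wild type, 4 against Falcor-/- and 229 against Foxa2+/-. Pairwise fits and no trend gave 0 in both comparisons of the double heterozygotes with another mutant. Library weights gave 2 for the double heterozygotes against Foxa2+/-, where 13.9% of all genes tested passed, and 7 in the F-test, where 47.5% did. Without weights these shares were 2.43% and 23.2%.

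With 1 library left out, the counts ran from 1 to 5 for Falcor-/- against wild type, with 1 without wild-type replicate 1 or 2 and 5 without Falcor-/- replicate 7. They were 0 to 0 for Foxa2+/- and 1 to 1 for the double heterozygotes against wild type. They ran from 3, without Foxa2+/- replicate 13, to 7, without Falcor-/- replicate 7, for Falcor-/- against Foxa2+/-, from 0 to 1 in both other comparisons between mutants, and in the F-test from 2, without Falcor-/- replicate 6, to 6, without Falcor-/- replicate 7. The share of all genes tested that passed moved too. For Falcor-/- against wild type it was 2.32% and 2.77% without wild-type replicate 1 or 2, and 25.7% without Falcor-/- replicate 7. For Falcor-/- against Foxa2+/- it was 5.01% at the count of 3 and 31.1% at the count of 7. In the F-test it was 18.6% at the count of 2 and 37.4% at the count of 6. With all libraries these shares were 9.47%, 16.7% and 23.2% in that order.

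No called difference changed sign under any alternative run, while 35 values of uncalled differences from wild type did, apart from runs without 1 library. With the epithelial scaling, Falcor-/- gave -0.107 for Tapbp, -0.122 for B2m and -0.136 for H2-D1. The double heterozygotes gave -0.267 for Tap2, -0.260 for Tapbp (adjusted p = 0.0274), -0.181 for Psmb8 and -0.152 for H2-K1. With the 20S scaling, Falcor-/- gave -0.149 for Tapbp, -0.029 for Psmb10, -0.163 for B2m and -0.177 for H2-D1. The double heterozygotes then gave -0.129 for Tap2, -0.122 for Tapbp, -0.043 for Psmb8 and -0.014 for H2-K1. With the leukocyte covariate, Foxa2+/- gave 0.109 for Tap1, 0.151 for Tap2, 0.015 for Tapbp, 0.254 for Psmb8, 0.110 for Psmb10, 0.023 for B2m and 0.028 for H2-D1. The double heterozygotes gave 0.0023 for Psmb10 and 0.015 for H2-D1. With the endothelial covariate, Foxa2+/- gave 0.185 for Tap2, 0.053 for Tapbp and 0.063 for Psmb8. The double heterozygotes gave 0.192 for Psmb10, 0.117 for B2m and 0.074 for H2-D1. Library weights gave 0.031 for Tap1 and 0.070 for H2-D1 in Foxa2+/-, and 0.063 for both Psmb10 and H2-D1 in the double heterozygotes. The macrophage and dendritic cell covariate gave 0.024 for H2-D1 in the double heterozygotes. With 1 library left out, H2-D1 ran between -0.0023 and 0.217 for Falcor-/-, between -0.195 and 0.101 for Foxa2+/- and between -0.117 and 0.103 for the double heterozygotes. Tap1 ran between -0.098 and 0.050 for Foxa2+/-, and for the double heterozygotes Tap2 ran between -0.020 and 0.122 and Psmb10 between -0.168 and 0.010. The causes of these changes were not tested. No paired analysis was possible because the genotypes share no replicate number. Depth is unknown, so what it limits cannot be given.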
